A study of Mus musculus with 8 samples.

Results

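The 30 genes described here encode the machinery that carries a cell from G2 through mitosis, and their transcript levels were followed in 4 lines of mouse pancreatic ductal adenocarcinoma, each with C1galt1c1 intact and knocked out. The genes are a given list, found in the deposited table by their Ensembl identifiers through the GENCODE vM39 annotation, and they are 30 of the table's 49315 gene identifiers. Levels are in TPM, length-scaled shares of a library's transcripts that add up to 1000000. All 30 genes reached 1 TPM in 4 or more of the 8 libraries, the filter that 12900 identifiers passed and over which every test below was run.

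Cultures of lines 6694c2, 2838c3, 6499c4 and 6419c5 with C1galt1c1 knocked out (KO), which the series' design text calls Cosmc-deficient and positive for the Tn antigen, were set against wild-type (WT) cultures of the same lines. C1galt1c1 encodes Cosmc, the chaperone of the enzyme that extends O-linked glycans beyond their first sugar. All cultures were kept in high-glucose DMEM with fetal bovine serum and antibiotics, and the design text states that they were collected at matched confluence. Each line gave 1 KO and 1 WT library of polyadenylated RNA. How the knockouts were made, and whether a KO culture is 1 clone or a pool, is not stated in the labels. A difference within a line thus sets 1 library against 1 and has no replicate check, and p-values across lines measure the spread between the 4 lines. Sets of 4 values below run in the order 6694c2, 2838c3, 6499c4 and 6419c5.

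Mitotic entry is driven by the kinase Cdk1 bound to B-type cyclins, and mitotic exit by the anaphase promoting complex, which marks those cyclins and other proteins for destruction. Transcripts of most mitotic genes are made late in the cell cycle, when the MuvB complex recruits B-Myb (Mybl2) and Foxm1 to their promoters; in resting cells MuvB joins p130, p107 (Rbl1) and E2f4 in the repressive DREAM complex. Many such promoters carry a cell cycle genes homology region (CHR), which MuvB binds, and CCAAT boxes, which the factor NF-Y binds. In bulk RNA, a smaller share of cells in G2 and mitosis and less of these transcripts per cell cannot be told apart.

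C1galt1c1 itself stood at 10.9, 15.3, 19.0 and 16.1 TPM in the KO libraries, against 37.0, 40.4, 54.2 and 37.9 TPM in the WT libraries, lower in the KO culture of all 4 lines. Its fitted difference on the log2(TPM + 1) scale was -1.42 (SE 0.15, unadjusted limma p = 3.21e-05, Benjamini-Hochberg adjusted p = 0.278), and the exact two-sided sign-flip test over the 4 lines gave p = 0.125, the smallest it allows. Keratin and cadherin transcripts of epithelial cells (Krt8, Krt18, Krt19 and Cdh1) were present at 541 to 8257 TPM in every library. The other listed epithelial and ductal markers were lower in some libraries, Epcam at 1.21 to 44.9 TPM among them. Summed over 7 epithelial and ductal markers the level was 13360 to 24150 TPM in the KO libraries and 13780 to 20030 TPM in the WT libraries, a sum made up mostly of keratins. Defining markers of other cell types were at or near 0: Ptprc was at most 0.151 TPM, Pecam1 at most 0.143 TPM, and Cpa1, Ptf1a, Amy2a5, Ins1 and Ins2 were listed at 0. Of the 22 markers of other cell types, 3 passed the filter: Col1a1 (at most 5.62 TPM), Cd68 (5.49 to 28.1 TPM) and Cela1 (4.59 to 44.4 TPM), each over all 8 libraries. Across the 12900 genes, the KO library of 2838c3 stood apart from its line: its log2(TPM + 1) values correlated with r = 0.9443 with its own WT library and 0.9385 with the nearest WT library of another line, while in the other 3 lines r was 0.9679 to 0.9835 with the own WT and at most 0.9323 with another (a description across genes). Identifiers without a gene name took 12.5% and 9.69% of TPM in the KO libraries of 6694c2 and 6419c5, and 0.713% to 1.33% in the other 6 libraries. This share enters every TPM value of a library, so differences within a line are given relative to the median difference of all 12900 genes, which was -0.23, -0.08, -0.11 and -0.16 on the log2(TPM + 1) scale.

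As a group, the mitotic genes were far lower in the KO than in the WT culture of 2838c3 and higher in the KO culture of 6419c5. They lay nearer to the other genes in 6694c2 and 6499c4, with relative medians of -0.29 and -0.11. In 6694c2 most were still lower in KO, and their median lay at the lower quartile of all genes (-0.29). Their summed level was 1222, 371, 851 and 795 TPM in the KO libraries, against 1627, 3093, 979 and 453 TPM in the WT libraries. The sum averaged 810 ± 348 TPM in KO and 1538 ± 1143 TPM in WT (SD, n = 4 each), with ranges that overlapped. The WT culture of 2838c3 had the highest sum of all 8 libraries and its KO culture the lowest, an 8.33-fold difference. In 6419c5 the KO sum was 1.76-fold the WT sum.

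**Figure D1:**
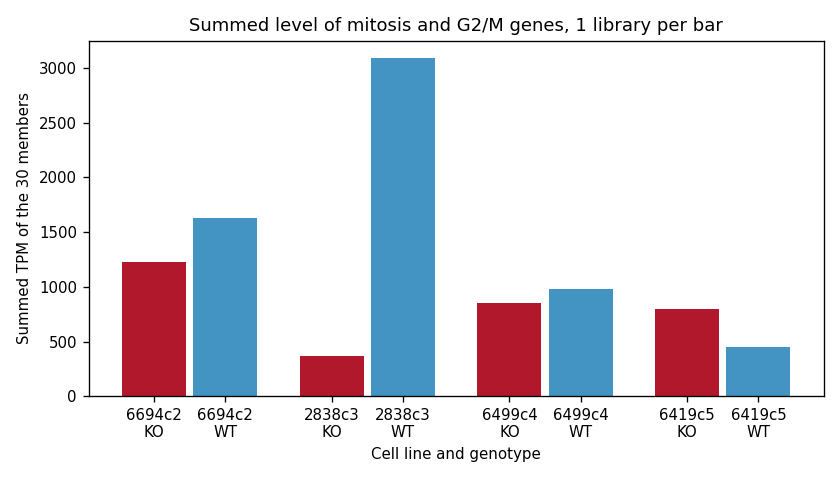
Summed TPM of the 30 mitosis and G2/M genes (vertical axis, starting at 0) in each library, with the KO bar (red) left of the WT bar (blue) in each cell line; a bar is 1 library and has no error. In 2838c3 the KO bar stands at 371 TPM beside a WT bar of 3093 TPM, while in 6419c5 the KO bar of 795 TPM is above the WT bar of 453 TPM.

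The WT cultures already differed widely. For all 30 genes the WT levels ran in the same order, 2838c3 above 6694c2, 6694c2 above 6499c4 and 6499c4 above 6419c5, an order held by 7.57% of all genes tested. The highest WT line had 1.66 to 14.6 times the level of the lowest, with a median of 6.82 over the 30 genes. The WT library of 2838c3 was the highest of all 8 for each of the 30 genes (19.6% of all genes tested). Members share libraries, so these counts describe 1 order of 4 cultures and not 30 independent orders. In the KO cultures the order was another one. 6694c2 was the highest KO line for 27 genes (19% of all genes), the exceptions being Cdk1 (6419c5), Cenpa (6499c4) and Hjurp (2838c3). 2838c3 was the lowest KO line for 28 genes (20.4% of all genes), the exceptions being Kif23 and Hjurp, both lowest in 6419c5. Over all 8 libraries the lowest was the KO culture of 2838c3 for 18 genes (14.3% of all genes). It was the KO culture of 6419c5 for Hjurp and the WT culture of 6419c5 for the remaining members.

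**Figure D2:**
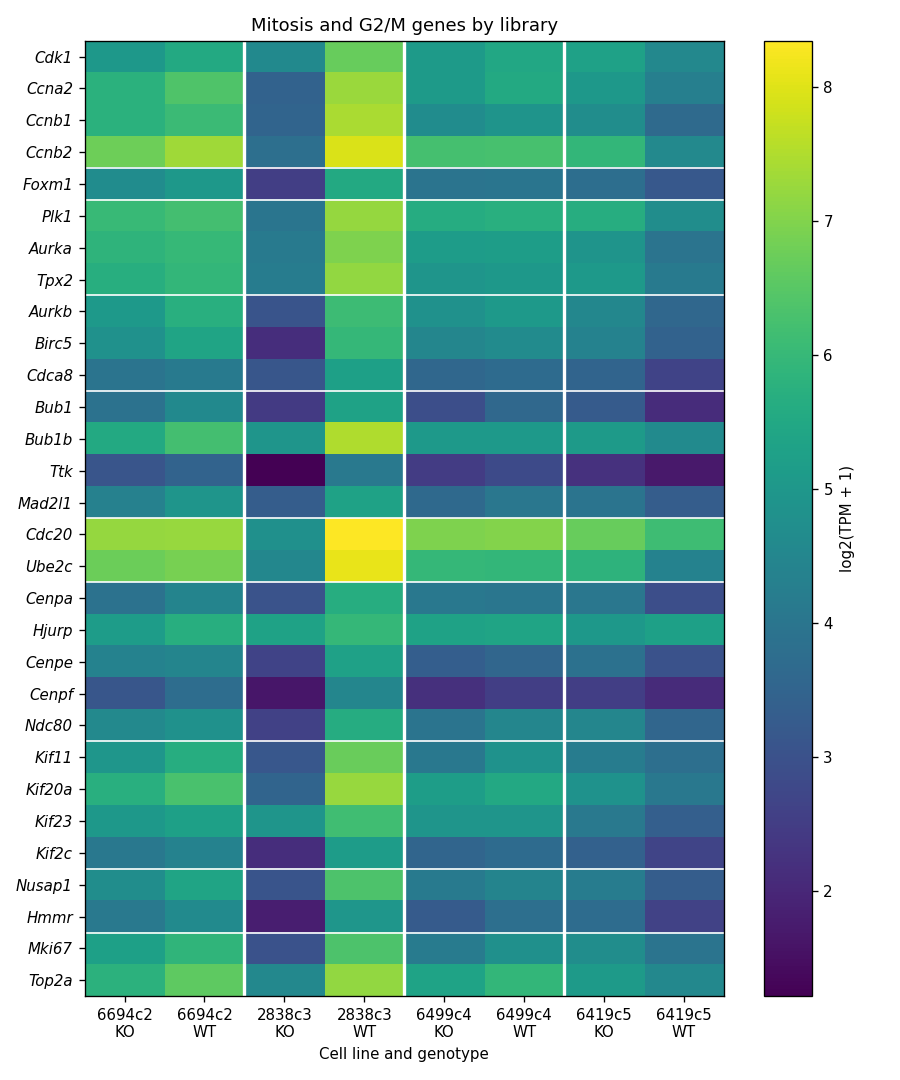
Level of each of the 30 genes, as log2(TPM + 1) on the colour scale, in the 8 libraries, with the KO column left of the WT column in each line and genes grouped by role. The WT column of 2838c3 is the brightest for every gene, and the KO column of 2838c3 is the darkest of the 4 KO columns for all genes but Kif23 and Hjurp.

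Across the 4 lines together, no gene was called different between KO and WT. The Benjamini-Hochberg adjusted p of limma, with the cell line as a block, was under 0.05 for 0 of 12900 genes (0%) and thus for none of the 30. At an unadjusted p under 0.05 there were 0 of the 30 genes, against 8.81% of all genes. The members were taken up with opposite moves of 2838c3 and 6419c5 in view. Such moves widen the spread between lines that this test uses, so this 0 is no result about the members. The fitted KO minus WT values of the 30 ran from -1.17 for Kif11 to -0.19 for Kif23 with a median of -0.74 on the log2(TPM + 1) scale, where the median of all genes was -0.15. Their adjusted limma p ran from 0.561 to 0.831. For none of the 30 did the KO and WT libraries separate (1.49% of all genes did), and opposite moves leave little room for it. Hjurp alone was lower in the KO culture of all 4 lines by TPM, which 18.5% of all genes were. The members' median rested on 2838c3: without that line it was 0.03, against -0.17 for all genes. Without 6419c5, the line in which the members were higher in KO, 12 of the 30 had an unadjusted limma p under 0.05, all negative (5.43% of all genes), and 0 an adjusted one.

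Within 2838c3, all 30 genes were lower in the KO culture relative to the median of all genes (50% of all genes by construction), and 29 were at least 2-fold lower on the log2(TPM + 1) scale, against 6.47% of all genes. The relative difference had a median of -2.93 and ran from -4.04 for Ccnb2 to -0.56 for Hjurp. By the ratio of TPM the WT level was 1.58 to 18.7 times the KO level, with a median of 9.67. The smallest ratios were those of Hjurp (1.58) and Kif23 (2.40).

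Within 6419c5, 29 of the 30 genes were higher in the KO culture relative to the median of all genes (50% of all genes by construction), and 15 were at least 2-fold higher, against 2.09% of all genes. The relative difference had a median of 0.97 and ran from -0.09 for Hjurp to 1.59 for Ube2c. By the ratio of TPM the KO level was 0.841 to 2.79 times the WT level, with a median of 1.88. The KO library of 6419c5 is also one of the pair rich in identifiers without a name, which lowers the shares of all other genes in it. When those identifiers were left out and each library scaled back to its total, a choice made after the data were seen, the members' median difference in 6419c5 was 0.98.

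Within 6694c2 the median relative difference was -0.29, with 24 genes lower and 6 higher in KO (50% of all genes each way by construction); within 6499c4 it was -0.11, with 19 lower and 11 higher. No member was 2-fold lower or higher in either line, against 3.17% lower and 2.79% higher of all genes in 6694c2 and 1.26% lower and 1.12% higher in 6499c4. The range over the members was -0.56 (Top2a) to 0.20 (Cdc20) in 6694c2 and -0.69 (Kif11) to 0.16 (Bub1b) in 6499c4. In 6694c2 as deposited, all 30 genes were lower in KO by TPM, and so were 71.1% of all genes.

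**Figure D3:**
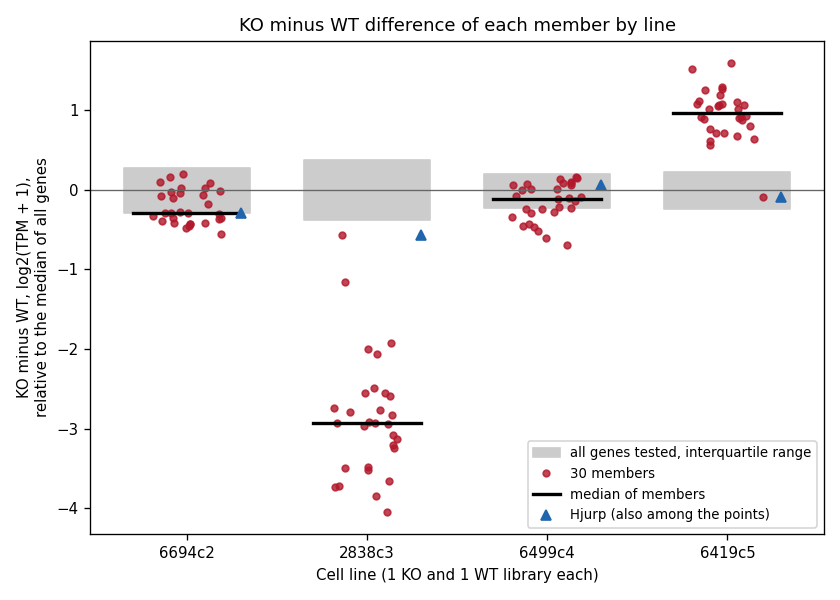
KO minus WT difference of each of the 30 genes (red points) in each cell line, in log2(TPM + 1) relative to the median of all genes; black bars mark the members' medians, grey boxes the interquartile range of all 12900 genes, and blue triangles repeat Hjurp. The members' medians lie at -0.29 (6694c2), -2.93 (2838c3), -0.11 (6499c4) and 0.97 (6419c5).

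The differences between lines were tested as interactions of genotype with line. The list was taken up with the opposite moves of 2838c3 and 6419c5 in view, so the counts for these 2 lines describe those moves and support nothing further. The same moves enter the spread against which 6694c2 and 6499c4 are tested. Low counts for 6694c2 and 6499c4 therefore cannot show that the members' KO effects there were like those of other lines. For the KO effect of 2838c3 against that of the other 3 lines, limma called 0 of 12900 genes (0%) at an adjusted p under 0.05. Unadjusted p was under 0.05 for 2343 genes (18.2%), 8.22% with a negative estimate, and for 29 of the 30 mitotic genes, all negative. The members' estimates had a median of -3.09 and ran from -4.40 (Ccnb2) to -0.37 (Hjurp), with adjusted limma p from 0.111 to 0.545. Cdc20 had the smallest unadjusted limma p of the 30, with an estimate of -3.72 (SE 0.35), and shared the smallest adjusted p with other members. Without line 6694c2, 333 of 13036 genes (2.55%) were called and 26 of the 30 were among them. Without 6499c4 or without 6419c5 no gene was called. For the KO effect of 6419c5 against the other lines 2 of the 30 had an unadjusted limma p under 0.05, both positive (0.806% of all genes, and 1.4% in either direction), and 0 of 12900 genes were called. That count of positive members was 15 without 6694c2 (1.93% of all genes), 23 without 2838c3 (1.63%) and 16 without 6499c4 (1.12%), again with 0 genes called. For 6694c2 and for 6499c4 none of the 30 had an unadjusted limma p under 0.05, against 4.58% and 1.13% of all genes; without 2838c3 the count for 6694c2 was 3, against 8.59% of all genes.

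Set directly against each other, the KO effect of 2838c3 minus that of 6419c5 was negative for all 30 genes, from -5.49 (Ccnb2) to -0.40 (Hjurp) with a median of -3.94. No gene of the 12900 (0%) reached a limma adjusted p under 0.05. The spread in this contrast rests on how far the KO effects of 6694c2 and 6499c4 differ, 1 residual degree of freedom per gene, beside what limma pools over genes, so a p that misses the threshold says little here. Of the 30 genes, 29 were at least 2-fold lower in the KO culture of 2838c3 and higher in that of 6419c5, against 4.5% of all genes, a description of how the list was taken up, and Hjurp was the exception.

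**Figure D4:**
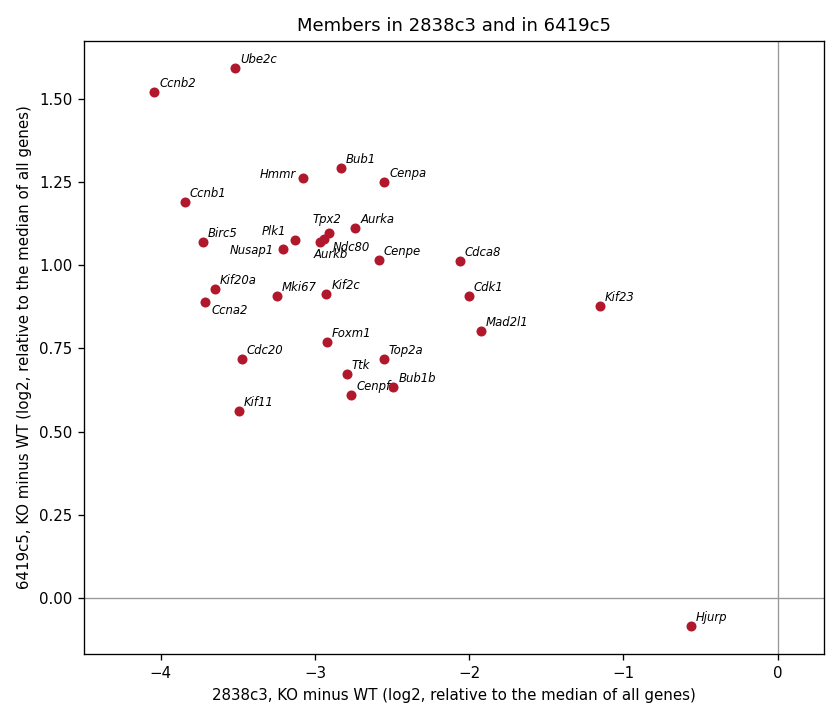
Each of the 30 genes by its KO minus WT difference in 2838c3 (horizontal axis) and in 6419c5 (vertical axis), both in log2(TPM + 1) relative to the median of all genes. All but Hjurp lie in the upper left, lower in KO in 2838c3 and higher in KO in 6419c5, with Ccnb2 (-4.04 and 1.52) and Ube2c (-3.52 and 1.59) farthest out.

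The members varied together over the 8 libraries. Pearson's r between a gene and the mean of the other 29 z-scored genes was 0.998 for Nusap1 at the top and 0.70 for Hjurp and 0.75 for Kif23 at the bottom (n = 8 libraries, which share 4 lines; a description). Across the 30 genes, the differences in 2838c3 and 6419c5 had a Pearson's r of -0.54 and a Spearman's rho of -0.37, and without Hjurp -0.30 and -0.30 over 29 genes. Genes are not independent replicates, and these values are a description.

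Promoter sequences were read for the genes at both ends of the difference in 2838c3, because the members varied together and their class is known for 2 promoter elements. RefSeq windows, from 250 bases before to 50 after the annotated start of a gene, were found for 25 of the 30 genes, all but Aurkb, Ccna2, Foxm1, Kif20a and Tpx2. The CHR was searched as TTTGAA and the CCAAT box as CCAAT, each on both strands (TTCAAA and ATTGG on the other). A CHR match was present in 19 of the 25 windows (76%), against 17.9% of 32851 windows of all genes. A CCAAT box was present in 20 (80%), against 37.4%, and at least 2 in 14 (56%), against 11.7%. Both elements were present in 17 (68%), against 6.95%. The E2F site, searched as GCGGGAA and TTCCCGC, was in 0 of the 25 and in 4.6% of all windows; no match says only that these letters are not in this window.

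The windows of the 3 genes with the largest difference in 2838c3 and of the 2 with the smallest follow, 5′ to 3′ along the gene's strand, from the RefSeq table of build GRCm38.p6 and placed on GRCm39 by exact match. Capitals mark matches to the CHR or the CCAAT box on either strand. The Ccnb2 window is chr9:70328787-70329086 (minus strand), that of Ccnb1 chr13:100922945-100923244 (minus strand), that of Birc5 chr11:117739813-117740112 (plus strand), that of Kif23 chr9:61854032-61854331 (minus strand) and that of Hjurp chr1:88205252-88205551 (minus strand).
Ccnb2: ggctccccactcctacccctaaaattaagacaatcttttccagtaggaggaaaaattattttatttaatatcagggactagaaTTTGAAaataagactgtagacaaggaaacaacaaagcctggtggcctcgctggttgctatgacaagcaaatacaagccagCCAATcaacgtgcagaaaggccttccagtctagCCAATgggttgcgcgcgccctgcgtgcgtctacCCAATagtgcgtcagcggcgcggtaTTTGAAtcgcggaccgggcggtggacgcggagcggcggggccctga
Ccnb1: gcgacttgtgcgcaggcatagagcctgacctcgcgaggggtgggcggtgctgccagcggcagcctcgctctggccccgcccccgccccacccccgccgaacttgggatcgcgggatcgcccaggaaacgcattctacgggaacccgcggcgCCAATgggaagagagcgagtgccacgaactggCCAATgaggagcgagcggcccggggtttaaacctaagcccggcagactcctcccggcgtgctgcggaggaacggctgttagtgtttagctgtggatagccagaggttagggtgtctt
Birc5: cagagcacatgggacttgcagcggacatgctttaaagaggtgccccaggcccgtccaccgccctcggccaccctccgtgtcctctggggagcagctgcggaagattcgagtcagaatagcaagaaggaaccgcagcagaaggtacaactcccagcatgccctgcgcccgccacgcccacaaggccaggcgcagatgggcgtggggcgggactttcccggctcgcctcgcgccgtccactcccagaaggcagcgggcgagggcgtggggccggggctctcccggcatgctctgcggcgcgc
Kif23: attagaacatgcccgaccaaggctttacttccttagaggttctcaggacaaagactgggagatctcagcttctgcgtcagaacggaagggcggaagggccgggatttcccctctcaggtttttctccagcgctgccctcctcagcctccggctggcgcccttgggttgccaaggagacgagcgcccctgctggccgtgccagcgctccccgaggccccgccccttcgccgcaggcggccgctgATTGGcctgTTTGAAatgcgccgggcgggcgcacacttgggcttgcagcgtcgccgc
Hjurp: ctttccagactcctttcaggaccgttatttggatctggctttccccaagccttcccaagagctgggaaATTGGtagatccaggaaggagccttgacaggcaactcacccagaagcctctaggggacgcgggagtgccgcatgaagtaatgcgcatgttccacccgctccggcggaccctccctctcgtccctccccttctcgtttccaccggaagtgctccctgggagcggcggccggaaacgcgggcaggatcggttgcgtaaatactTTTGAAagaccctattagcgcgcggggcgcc

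Ccnb2 held 3 CCAAT boxes and 2 CHR matches, the second CHR starting 4 bases after the annotated start. Ccnb1 held 2 CCAAT boxes and no match to TTTGAA or TTCAAA, and Birc5 held no match to either element. No other letters were searched for the CHR, so a window without a match is not shown to lack a CHR. Kif23 and Hjurp, with the smallest differences in 2838c3, each held 1 CHR and 1 CCAAT match. The 19 genes with a CHR match had a median relative difference of -2.80 in 2838c3 and the 6 without one -3.02. In 6419c5 the medians were 0.91 and 1.06. These groups are set by the letters searched, and may not part genes with a CHR from genes without one. The part of the CHR in these levels was not tested.

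The cyclins and their kinase held the most extreme gene. Ccnb2, a B-type cyclin, stood at 109, 13.0, 75.4 and 60.1 TPM in the KO libraries, against 159, 243, 76.3 and 22.7 TPM in the WT libraries. That is an 18.7-fold lower level in the KO than in the WT culture of 2838c3 and a 2.65-fold higher one in the KO culture of 6419c5, while the pair of 6499c4 was almost level. Ccnb1, the B-type cyclin needed for entry into mitosis, stood at 53.7, 10.4, 24.8 and 25.2 TPM in the KO libraries, against 66.9, 173, 29.1 and 11.8 TPM in the WT libraries, so it was 16.6-fold lower in KO in 2838c3 and 2.14-fold higher in KO in 6419c5. Ccna2, which acts in S phase and early mitosis, was at 53.9, 10.1, 33.2 and 31.5 TPM in the KO libraries, against 81.8, 153, 45.7 and 18.5 TPM in the WT libraries. Its KO and WT levels crossed between 2838c3 and 6419c5 in the same manner. Cdk1, the catalytic partner of these cyclins, had 31.7, 23.3, 33.7 and 38.2 TPM in the KO libraries, against 45.8, 102, 44.4 and 22.3 TPM in the WT libraries. Cdk1 was 4.38-fold lower in the KO culture of 2838c3, less far down than its cyclins, and it was the only one of the 30 whose highest KO level was in 6419c5. Pseudogenes of both B-type cyclins are annotated and could take or give reads; Ccnb1-ps reached 3.89 TPM and Ccnb2-ps 0.915 TPM in any library.

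Foxm1, the forkhead factor that activates genes of this class, stood at 24.8, 4.86, 14.7 and 12.8 TPM in the KO libraries, against 31.4, 46.1, 14.8 and 8.04 TPM in the WT libraries. The KO culture of 2838c3 was 9.48-fold below its WT, and the KO culture of 6419c5 1.60-fold above its WT. Foxm1 overlaps Rhno1 on the opposite strand, and 11 of the 30 genes overlap an opposite-strand gene that reaches 1 TPM, of at most 70.0 TPM. Whether the counting used strand is not stated, and without it reads of such pairs cannot be told apart.

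Among the mitotic kinases, Plk1, which acts at centrosomes, kinetochores and the midbody, stood at 63.8, 14.9, 48.5 and 49.1 TPM in the KO libraries, against 73.6, 147, 51.9 and 25.4 TPM in the WT libraries. Aurka, a kinase of the centrosome and spindle poles, stood at 56.7, 16.6, 34.7 and 28.9 TPM in the KO libraries, against 62.7, 123, 35.6 and 14.4 TPM in the WT libraries. Tpx2, the spindle protein that activates Aurka, stood at 50.0, 17.4, 29.6 and 33.0 TPM in the KO libraries, against 60.3, 145, 31.7 and 16.7 TPM in the WT libraries. All 3 were lowest among KO cultures in 2838c3 and had nearly equal KO and WT levels in 6499c4, with relative differences of 0.01 for Plk1, 0.07 for Aurka and 0.01 for Tpx2.

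The chromosomal passenger complex, which corrects faulty attachments of chromosomes to the spindle, was represented by its kinase Aurkb and by Birc5 and Cdca8. Aurkb stood at 32.1, 7.34, 27.3 and 21.8 TPM in the KO libraries, against 51.1, 68.0, 31.7 and 11.1 TPM in the WT libraries. Birc5, also known as survivin, stood at 27.5, 3.48, 21.3 and 19.7 TPM in the KO libraries, against 40.9, 61.8, 24.4 and 9.99 TPM in the WT libraries. Cdca8, also known as borealin, stood at 14.4, 7.67, 11.1 and 10.3 TPM in the KO libraries, against 16.9, 37.3, 12.0 and 5.25 TPM in the WT libraries. Members of 1 complex thus differed in extent: in 2838c3 the KO level was 17.8-fold lower for Birc5, 9.27-fold for Aurkb and 4.86-fold for Cdca8, while in 6419c5 all 3 were 1.97-fold higher in KO.

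Of the spindle checkpoint, which holds back anaphase until chromosomes are attached, Bub1b (BubR1) had the highest level. In 2838c3, Bub1 and Ttk had relative differences of -2.83 and -2.80 on the log2(TPM + 1) scale. Bub1b stood at 46.1, 29.3, 32.9 and 33.6 TPM in the KO libraries, against 72.6, 179, 31.8 and 23.9 TPM in the WT libraries. Bub1, a kinase of the kinetochore, stood at 14.0, 4.35, 6.62 and 8.60 TPM in the KO libraries, against 23.2, 39.3, 11.4 and 3.36 TPM in the WT libraries, so its KO culture was 9.02-fold lower in 2838c3 and 2.56-fold higher in 6419c5. Ttk, the kinase that starts checkpoint signalling, stood at 7.48, 1.32, 4.56 and 3.70 TPM in the KO libraries, against 10.3, 16.0, 6.05 and 2.28 TPM in the WT libraries. By the ratio of TPM, Ttk was 12.1-fold lower in the KO culture of 2838c3, the largest fold of the 4 checkpoint genes. It was the lowest gene of the 30 in any library, at 1.32 TPM in the KO culture of 2838c3, where the log2(TPM + 1) scale understates the change most. Mad2l1, the checkpoint protein that sequesters Cdc20, stood at 19.4, 9.02, 11.6 and 14.6 TPM in the KO libraries, against 29.5, 39.2, 15.5 and 8.95 TPM in the WT libraries, a 4.34-fold lower level in the KO culture of 2838c3.

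Cdc20 and Ube2c, partners of the anaphase promoting complex, were the most abundant genes of the list beside Ccnb2. Cdc20, the activator that the checkpoint inhibits, stood at 149, 26.7, 124 and 102 TPM in the KO libraries, against 152, 325, 128 and 68.6 TPM in the WT libraries. Its WT level in 2838c3, 325 TPM, was the highest of any member in any library, and its KO and WT levels in 6694c2 and in 6499c4 were nearly equal. Ube2c, the conjugating enzyme that starts ubiquitin chains for the complex, stood at 107, 22.0, 61.5 and 55.4 TPM in the KO libraries, against 116, 277, 60.2 and 19.8 TPM in the WT libraries. It had the largest difference of all 30 in 6419c5, where the KO culture was 2.79-fold higher.

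Genes of the centromere and kinetochore differed among themselves. Ndc80, which binds microtubules at the kinetochore, stood at 22.7, 5.09, 14.7 and 21.4 TPM in the KO libraries, against 27.2, 48.5, 21.7 and 10.8 TPM in the WT libraries. Cenpe, a kinetochore motor, stood at 19.8, 5.23, 9.08 and 13.7 TPM in the KO libraries, against 20.8, 38.6, 10.9 and 7.08 TPM in the WT libraries. Both were lower in the KO culture of 2838c3, 9.52-fold and 7.38-fold, and higher in that of 6419c5. Cenpa, the histone variant that marks centromeres, stood at 14.1, 7.23, 15.7 and 15.3 TPM in the KO libraries, against 20.5, 50.0, 15.3 and 6.65 TPM in the WT libraries. Cenpf, a large kinetochore protein, stood at 7.72, 2.13, 3.64 and 4.82 TPM in the KO libraries, against 12.6, 21.4, 4.80 and 3.24 TPM in the WT libraries. Hjurp, the chaperone that places Cenpa at centromeres, differed less between KO and WT than these 4 in 2838c3. It stood at 34.9, 39.3, 39.0 and 31.5 TPM in the KO libraries, against 50.5, 62.0, 40.4 and 37.4 TPM in the WT libraries, so its KO and WT ranges overlapped but lay close together, with a KO culture 1.58-fold lower than WT in 2838c3 and 0.841-fold the WT level in 6419c5. Hjurp had the smallest unadjusted p of the 30 between KO and WT (log2 difference -0.36, SE 0.15, limma p = 0.0506, adjusted p = 0.561; exact sign-flip p = 0.125 over 4 lines).

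Among the kinesins, Kif20a, a motor of the central spindle needed for cytokinesis, stood at 51.2, 10.4, 35.3 and 27.6 TPM in the KO libraries, against 77.2, 151, 45.1 and 15.7 TPM in the WT libraries. Kif11, the motor that pushes spindle poles apart, stood at 30.1, 7.80, 15.7 and 17.6 TPM in the KO libraries, against 49.7, 104, 28.0 and 13.0 TPM in the WT libraries. Its KO level was lower than WT by 13.3-fold in 2838c3, and it had the lowest fitted KO minus WT value of the 30 over all lines, -1.17 (SE 0.58, limma adjusted p = 0.575), which was -0.36 without 2838c3. Kif2c, which takes microtubules apart at kinetochores, stood at 16.0, 3.46, 10.6 and 9.81 TPM in the KO libraries, against 19.8, 34.9, 12.2 and 5.38 TPM in the WT libraries. Kif23, a kinesin of the central spindle, stood at 31.4, 29.5, 29.7 and 16.1 TPM in the KO libraries, against 37.4, 70.7, 29.7 and 9.35 TPM in the WT libraries. In 2838c3 the Kif23 level was 2.40-fold lower in KO, the smallest fold after Hjurp, and it left the KO level of 2838c3 beside those of 6694c2 and 6499c4. Without 2838c3 the fitted KO minus WT values of Kif23 and Ccnb2 were 0.16 and 0.27, against -0.19 and -0.83 with all 4 lines.

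The spindle proteins and the genes of chromosome structure followed the main pattern. Nusap1, which stabilises and bundles spindle microtubules, stood at 25.2, 7.43, 16.3 and 17.4 TPM in the KO libraries, against 40.3, 81.5, 20.7 and 8.88 TPM in the WT libraries. Hmmr, a spindle assembly protein, stood at 16.1, 2.49, 8.54 and 12.3 TPM in the KO libraries, against 23.6, 30.2, 13.1 and 5.16 TPM in the WT libraries. Their relative differences in 2838c3 were -3.21 for Nusap1 and -3.08 for Hmmr, and in the KO culture of 6419c5 Nusap1 was 1.96-fold and Hmmr 2.38-fold higher. Mki67, which coats mitotic chromosomes and is widely stained as a marker of proliferation, stood at 37.3, 7.11, 17.1 and 25.1 TPM in the KO libraries, against 58.1, 80.4, 26.9 and 14.5 TPM in the WT libraries. Top2a, the topoisomerase that untangles sister chromatids, stood at 54.5, 22.6, 40.0 and 33.5 TPM in the KO libraries, against 94.9, 145, 60.1 and 22.4 TPM in the WT libraries. Mki67 was 11.3-fold and Top2a 6.45-fold lower in the KO culture of 2838c3; both were also lower in the KO cultures of 6694c2 and 6499c4, with relative differences of -0.40 and -0.52 for Mki67 and -0.56 and -0.47 for Top2a.

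Most other mitosis genes were also lower in the KO culture of 2838c3 and higher in that of 6419c5. A list of 81 other mitosis genes, chosen with earlier results of these data known, had a median relative difference of -2.27 in 2838c3, where 68 of 81 were at least 2-fold lower in KO (6.47% of all genes), and of 0.68 in 6419c5, where all 81 were higher and 14 at least 2-fold higher (2.09% of all genes). The exceptions were 2 genes higher in the KO culture of 2838c3, Pttg1 and Zwint, named after their values were seen. Pttg1, the securin that holds back the separation of sister chromatids, stood at 13.7, 38.3, 21.5 and 19.4 TPM in the KO libraries, against 18.0, 18.9, 23.4 and 19.6 TPM in the WT libraries, a relative difference of 1.06 in 2838c3. Zwint, a kinetochore protein, had one of 0.16 there. Over the 4 lines 4 of the 81 had an unadjusted limma p under 0.05, all lower in KO, against 7.95% of all genes, and 0 an adjusted one; a share this near the background is no result about the list. Pbk, a mitotic kinase, stood at 31.8, 8.39, 14.2 and 17.4 TPM in the KO libraries, against 58.0, 118, 28.4 and 8.92 TPM in the WT libraries. Cdca3, which helps to trigger mitotic entry, stood at 24.2, 5.27, 23.1 and 22.2 TPM in the KO libraries, against 37.4, 75.9, 22.5 and 10.6 TPM in the WT libraries, and Spc24, a partner of Ndc80, at 15.7, 2.04, 11.2 and 8.45 TPM in the KO libraries, against 18.3, 33.0, 10.4 and 5.09 TPM in the WT libraries. The lowest p of the list was that of Ska2, a kinetochore protein, with -0.59 (SE 0.19, limma adjusted p = 0.556).

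Replication genes were lower in the KO culture of 2838c3 as well but stood nearer to the other genes in 6419c5. Of 20 replication genes, 18 were at least 2-fold lower in the KO culture of 2838c3 (6.47% of all genes), with a median relative difference of -1.80. In 6419c5 the median was 0.21 and none was 2-fold higher (2.09% of all genes). The medians in 6694c2 and 6499c4 were -0.53 and -0.22. Over the 4 lines 11 of the 20 had an unadjusted limma p under 0.05, all lower in KO (7.95% of all genes), and 0 an adjusted one. This list too was chosen with earlier results of these data known, and the fit is not relative to the median of all genes. That share of all genes was 4.76% without unnamed identifiers and 2.69% with median-ratio scaling, for which the list was not counted. Mcm5, a subunit of the replicative helicase, stood at 49.2, 12.2, 40.1 and 26.6 TPM in the KO libraries, against 88.3, 146, 49.7 and 24.2 TPM in the WT libraries. Cdc6, which loads that helicase, and Tyms, which makes thymidylate, were lower in the KO culture of 2838c3 by 2.80 and 2.65 on the relative log2 scale. Rrm1, a subunit of ribonucleotide reductase, had the smallest p of the list (-0.72, SE 0.20, limma adjusted p = 0.556).

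Regulators of the programme differed less at the median of their list, though Mybl2 did not. Of 20 genes of the DREAM and MuvB complexes and the E2F family that were tested, 5 were at least 2-fold lower in the KO culture of 2838c3 (6.47% of all genes). The list's median was -0.47 in 2838c3, with -3.56 for Mybl2 as the lowest value, and 0.10 in 6419c5. Mybl2 stood at 9.47, 3.20, 9.30 and 6.88 TPM in the KO libraries, against 14.3, 51.3, 11.9 and 5.25 TPM in the WT libraries, and E2f8, a repressor of the E2F family, at 4.18, 1.84, 3.27 and 3.91 TPM in the KO libraries, against 9.49, 15.8, 4.87 and 2.59 TPM in the WT libraries. E2f4, the E2F member of the DREAM complex, stood at 94.3, 108, 98.2 and 96.9 TPM in the KO libraries, against 94.0, 177, 94.2 and 111 TPM in the WT libraries, with relative differences of 0.23, -0.62, 0.16 and -0.03 across the lines. Rbl1, also called p107, had a fitted difference of -0.81 (SE 0.28, limma adjusted p = 0.561). The 16 subunits and cofactors of the anaphase promoting complex had medians of -0.27 in 2838c3 and 0.08 in 6419c5. In 2838c3, 2 were at least 2-fold lower in KO, Ube2s and Anapc5 (6.47% of all genes). Anapc15 and Anapc10 had relative differences of -0.76 and -0.35 there.

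Among 15 G1 cyclins, their kinases and inhibitors, the median relative difference was -0.23 in 2838c3 and 0.10 in 6419c5. Cdkn1a, the inhibitor p21 that restrains cyclin-dependent kinases, stood at 80.8, 212, 32.1 and 42.2 TPM in the KO libraries, against 88.1, 44.0, 10.5 and 15.2 TPM in the WT libraries. It was higher in the KO culture of 2838c3, 6499c4 and 6419c5 and not in 6694c2 by TPM, with relative differences of 0.11, 2.32, 1.63 and 1.57. The fitted difference of Cdkn1a was 1.26 (SE 0.35, limma adjusted p = 0.556). Cdkn1a was thus higher in KO both in 2838c3, where the mitotic genes were lower in KO, and in 6419c5, where they were higher; its part in their levels was not tested. Ccne2 stood at 3.32, 3.27, 2.15 and 2.08 TPM in the KO libraries, against 8.08, 16.4, 5.55 and 1.98 TPM in the WT libraries, and Ccne1, the other cyclin that opens S phase, at 2.03, 3.68, 3.11 and 5.07 TPM in the KO libraries, against 2.54, 11.9, 4.05 and 4.49 TPM in the WT libraries.

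**Figure D5:**
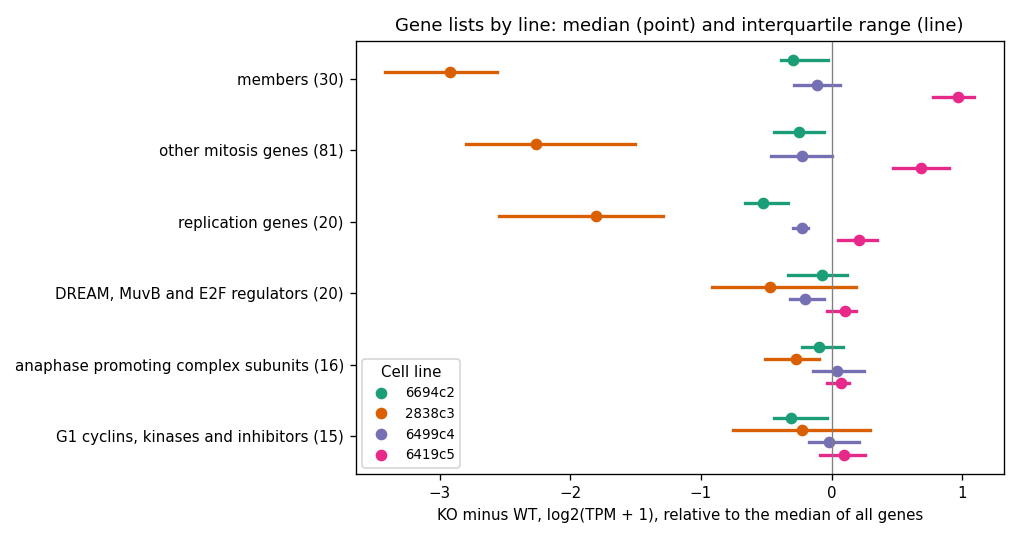
Median (point) and interquartile range (line) of the KO minus WT difference, in log2(TPM + 1) relative to the median of all genes, for the 30 mitosis and G2/M genes and 5 other lists, with 1 colour per cell line. In 2838c3 the members (-2.93), other mitosis genes (-2.27) and replication genes (-1.80) lie far to the left, while regulators, anaphase promoting complex subunits and G1 genes lie at -0.47, -0.27 and -0.23.

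Levels were also compared between lines with both genotypes of a line taken as its libraries. The limma F-test on the 3 line terms called 2178 of 12900 genes (16.9%), and none of the 30, whose adjusted p ran from 0.0786 to 0.876. Kif23 was the only one with an unadjusted p under 0.05 (0.0185), against 37% of all genes. The opposite KO moves with which the members were taken up enter the spread of this F-test. These low counts thus cannot show that the members' levels were alike between lines. Without line 2838c3, 10 of the 30 were called, with 29.1% of all genes (3785) called, a share near that of the members.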

How the data were processed

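Polyadenylated RNA of 8 cultures was sequenced as paired ends. The authors deposited TPM as a single table, 49315 identifiers by 8 libraries, per the file headers. The submitters' processing notes name STAR 2.7.11b, cutadapt 5.1, featureCounts 2.1.1, DESeq2 2.11.40.8 and build mm39. The gene lengths and strand setting behind the TPM are not stated there, and TPM keep no depth. Names came from GENCODE vM39 (45505 identifiers matched, 3810 did not).

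The 12900 genes that reached 1 TPM in 4 or more libraries entered limma 3.58.1 (R 4.3.3) on log2(TPM + 1), with terms for line and genotype, interaction terms for single lines, a mean-variance trend and Benjamini-Hochberg adjustment over all genes at 0.05. The scale understates changes of low genes. The line is a block because KO and WT cultures share it; their deviations from the group means correlated with r of 0.66, 0.42, 0.79 and 0.75. The fits were tested on simulated data with the spread of the fit without interaction terms, which includes KO effects particular to a line. There, the contrasts of 2838c3 with the other lines and with 6419c5 missed most or all of the changed genes at the adjusted threshold. These contrasts use another spread in the real data, so the share missed does not carry over to them. Their 0 calls do not show that the lines were alike. Line differences were set relative to the median of all genes, while fitted values and their p-values were not. Alternatives were a pseudocount of 0.1, no filter, a TPM minimum of 5, median-ratio scaling, quantile normalization, no trend, robust variance, no replicate block and each line left out; 2 more were chosen after the data were seen. The members and all lists were chosen with earlier results of these data known. Described with every value are, by rule, per role the member of highest mean TPM and of largest 2838c3 difference, the 5 smallest and 5 largest 6419c5 differences, and in other lists the smallest p and the 3 largest 2838c3 differences; values of the remaining members were added. One gene among those most like the members and 1 marker are not reported here. Of the 21 listed regulators, Lin54 was not matched. Python 3.11.15, pandas 2.3.3, numpy 2.4.6 and matplotlib 3.10.9 were used.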

Additional observations from a re-analysis of the deposited data

Results flagged for a closer look

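Kif23 stood at 31.4, 29.5, 29.7 and 16.1 TPM in the KO libraries of 6694c2, 2838c3, 6499c4 and 6419c5. In the WT libraries it stood at 37.4, 70.7, 29.7 and 9.35 TPM. Line 6419c5 was thus the lowest in both genotypes, and its KO level was 1.72-fold its WT level. The KO value of 16.1 TPM in 6419c5 lies far below the other 3 KO values, by a share of the group's whole range over Dixon's critical value for 4 samples. Of 62 groups of 4 libraries looked at this was the only one, and chance marks about 1 group in 20.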

How the results depend on the processing

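The members' median difference within a line kept its sign under every setting that gave it a value, from -3.16 to -2.86 in 2838c3, 0.84 to 1.07 in 6419c5, -0.21 to -0.10 in 6499c4 and -0.49 to -0.27 in 6694c2. KO against WT called 0 genes and 0 members under all 14 alternatives, no replicate block among them (0 genes, 0 members); members with an unadjusted p under 0.05 ranged from 0 to 20, the 20 without lines 6694c2 and 6419c5 (7.89% of all genes), a choice made after the data were seen that drops the line with higher levels in KO. With no filter on low values, 140 genes were called for 2838c3 against the other lines and 342 for 6419c5 against the other lines, with 0 members in both. For 2838c3 minus 6419c5, 0 genes were called as reported. A TPM minimum of 5 gave 72 genes (0.726% of 9920 tested) and 23 of the 29 members tested. Quantile normalization gave 85 genes (0.659% of 12900) and 26 members. Leaving out identifiers without a name, chosen after the data were seen, gave 163 genes (1.27% of 12822) and 28 members. The list was taken up with the opposite moves of these lines in view, so such counts describe those moves and support nothing further. Leaving out 1 line at a time gave 0 to 333 genes and 0 to 26 members for 2838c3 against the other lines. The 333 genes (2.55% of 13036 tested) and 26 members came without 6694c2. For 6499c4 against the other lines it gave 0 to 2 genes. For the line levels it gave 745 to 3785 genes and 0 to 10 members. Without 2838c3 there were 3785 genes (29.1% of 12986) and 10 members, without 6499c4 758 genes, and without 6419c5 745. The fitted KO minus WT value then ran from -0.49 to 0.16 for Kif23 and from -1.56 to 0.27 for Ccnb2, positive only without 2838c3. The cause of these shifts was not tested. With 6694c2 or 6499c4 left out, the direct contrast has no residual degrees of freedom and no test. TPM carry no read depth, so no counting error can be given, and the lowest genes, such as Ttk, are least certain.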

Other observations

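Outside the lists, named genes whose pattern over the 8 libraries was most like the mean of the 30 included Mcm10, Iqgap3, Sapcd2, Cdkn3, Nsl1, Fancd2, Pif1, Diaph3 and Dnajc9, with Pearson's r from 0.990 (Mcm10) to 0.970 (Dnajc9) over 8 libraries of 4 lines. They were chosen by that likeness, so their levels are a description. Mcm10, a replication factor, stood at 5.66, 1.27, 3.65 and 2.84 TPM in the KO libraries, against 7.86, 17.1, 5.21 and 1.98 TPM in the WT libraries. Cdkn3, a phosphatase of cyclin-dependent kinases, stood at 40.9, 10.8, 22.9 and 28.9 TPM in the KO libraries, against 67.8, 102, 24.5 and 13.3 TPM in the WT libraries. Iqgap3 stood at 8.88, 1.65, 6.03 and 6.41 TPM in the KO libraries, against 12.3, 32.9, 7.03 and 3.61 TPM in the WT libraries. All 9 were lower in the KO culture of 2838c3 and higher in that of 6419c5 relative to the median of all genes, by -3.60 (Iqgap3) to -1.52 (Nsl1) in 2838c3 and by 0.35 (Nsl1) to 1.22 (Cdkn3) in 6419c5.

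Of the 7 epithelial and ductal markers, 5 were higher and 2 (Cdh1 and Krt8) lower in the KO culture of 2838c3 relative to the median of all genes, with a median difference of 0.26. Epcam, an epithelial adhesion protein and the only one at least 2-fold apart there, stood at 1.21, 25.1, 9.15 and 27.1 TPM in the KO libraries, against 3.12, 1.35, 12.0 and 44.9 TPM in the WT libraries, so it was higher in the KO culture of 2838c3 and lower in that of the other 3 lines. Cd68, a lysosomal protein also used as a macrophage marker, stood at 8.31, 28.1, 18.5 and 7.63 TPM in the KO libraries, against 14.2, 8.93, 10.0 and 5.49 TPM in the WT libraries, while Ptprc was at most 0.151 TPM. Epcam and Cd68 were chosen after their values were seen, and their part in the levels of the mitotic genes was not tested.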
